A study of Homo sapiens with 12 samples.

Results

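TFIIH is the general transcription factor that triptolide acts on, and its subunits are encoded by 10 genes that were chosen here by name: ERCC3, ERCC2, GTF2H1, GTF2H2, GTF2H3, GTF2H4, GTF2H5, CDK7, CCNH and MNAT1. They are 10 of the 22379 genes in the deposited table, and each of them had a row, a value in all 12 libraries and a mean of at least 10 in untreated cells, the minimum for testing that 13811 genes met. The libraries came from poly(A)-selected RNA of the human osteosarcoma line U2OS and formed 6 groups of 2 replicates. The cells had received, by transient transfection, a Cas9 plasmid with a puromycin marker whose guide RNA had no target (NONT) or cut NUP93, which encodes a nuclear pore protein (NUP93-KO), or EXOSC5, which encodes a subunit of the RNA exosome (EXOSC5-KO). All 3 genotypes were therefore exposed to Cas9, and the knockouts were pools of edited cells and not clones. Each genotype was held for 8 h with 1 μM triptolide or with DMSO, the vehicle, which is called untreated here.

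TFIIH opens promoter DNA for RNA Pol II and also unwinds damaged DNA in nucleotide excision repair. Its core holds the translocase XPB (ERCC3), to which triptolide binds covalently, together with p62 (GTF2H1), p44 (GTF2H2), p34 (GTF2H3), p52 (GTF2H4) and p8 (GTF2H5). The helicase XPD (ERCC2) bridges the core to the CDK-activating kinase, which is made of CDK7, cyclin H (CCNH) and the assembly factor MAT1 (MNAT1) and phosphorylates the RNA Pol II tail. The comparisons below ask how much of each subunit's mRNA remained when transcription initiation was blocked, and whether that differed without NUP93 or EXOSC5.

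Because TFIIH acts at promoters, the start regions of the gene for the drug's target and of the member with the deepest loss are shown first, from 250 bases before to 50 bases after the RefSeq start (GRCh38.p14, 5′ to 3′). Capitals mark matches to CGGAAG (reverse complement CTTCCG), the core bound by ETS factors, or to CACGTG, an E-box. The ERCC3 window is chr2:127294095-127294394 on the minus strand, and the CDK7 window is chr5:69234636-69234935 on the plus strand.
ERCC3: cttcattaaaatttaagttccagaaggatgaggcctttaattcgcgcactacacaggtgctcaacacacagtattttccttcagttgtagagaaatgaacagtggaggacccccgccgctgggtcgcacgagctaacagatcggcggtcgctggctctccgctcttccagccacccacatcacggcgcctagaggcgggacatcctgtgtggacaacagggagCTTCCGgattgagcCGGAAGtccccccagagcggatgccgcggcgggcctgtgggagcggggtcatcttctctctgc
CDK7: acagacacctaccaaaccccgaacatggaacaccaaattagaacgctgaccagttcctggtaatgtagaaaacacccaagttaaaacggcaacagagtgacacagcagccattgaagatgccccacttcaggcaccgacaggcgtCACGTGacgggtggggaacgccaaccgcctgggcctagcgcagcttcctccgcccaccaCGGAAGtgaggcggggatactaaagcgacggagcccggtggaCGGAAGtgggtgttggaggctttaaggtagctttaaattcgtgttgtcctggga
Searched on both strands, CGGAAG was found in the windows of 6 of the 10 genes (ERCC3, GTF2H1, GTF2H2, GTF2H3, CDK7 and CCNH) and in 19.5% of 35116 windows in all. CACGTG was found in 2 of 10 (GTF2H1 and CDK7) against 7.3%, CCAAT in 2 against 34.6%, GGGCGG in 7 against 45.0% and TATAAA in 0 against 11.5%. These are letter matches in 1 window per gene, and the motifs were picked after the windows had been seen.

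GTF2H2 has a near-identical copy, GTF2H2C, on the other strand of chromosome 5, and a matching stretch upstream of each shows how alike the copies are. The first stretch is chr5:71067841-71067900 on the minus strand and the second is chr5:69559997-69560056 on the plus strand. The capital marks the base that differs.
GTF2H2: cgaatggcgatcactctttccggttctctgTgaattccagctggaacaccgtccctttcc
GTF2H2C: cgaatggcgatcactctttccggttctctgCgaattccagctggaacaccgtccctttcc
Over 270 aligned bases of the start windows the pair was 99.3% identical, with 2 differences. In the transcripts themselves, 96.4% of the 31-base words of GTF2H2 and 74.3% of those of GTF2H2C also occurred in transcripts of other genes. GTF2H4 shared 96.2% of its words with a noncoding gene that has no row in the table, CDK7 shared 13.6% with the pseudogene CDK7P1, and the other 7 members shared between 0.0% and 12.2%. These shares describe annotated transcripts and not how the authors' reads were assigned. A shared word makes a read ambiguous only if both genes were in the cDNA reference that the authors used. Whether the partners, such as the noncoding gene for GTF2H4, were in it was not tested. The values of GTF2H2, GTF2H2C and GTF2H4 are therefore uncertain by an unknown amount.

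The 10 genes lay on 7 chromosomes. ERCC3 (ENSG00000163161) spanned chr2:127257290-127294166 on the minus strand with 15 exons, and CDK7 (ENSG00000134058) spanned chr5:69234795-69277430 on the plus strand with 12 exons, in GENCODE release 44 on GRCh38. CDK7, CCNH and GTF2H2 all lay on chromosome 5. Their canonical transcripts were 1280 bases (CCNH) to 7483 bases (GTF2H5) long. The median GC content was 39.5% for the 10 and 48.1% for 12989 tested genes, and the median 3′ UTR length was 753 bases against 1370. ATTTA, the core of AU-rich elements, occurred in the 3′ UTRs of 80.0% of the 10 and of 74.0% of the tested genes. CDK7 held 1 match, as did GTF2H2, GTF2H4 and CCNH, while GTF2H5 held 15.

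The table held spike-in-normalised values: estimated counts per gene divided by a size factor from RNA standards that had been added in proportion to counted cells. Approximate depth was 8.60 to 11.96 M reads per library. The sum of gene values ran from 11.32 to 16.45 M in untreated libraries and from 4.90 to 8.79 M after triptolide. The NONT untreated replicates stood apart from each other, with a median gene lower by 0.51 on the log2 scale in replicate 1 than in replicate 2. The bone and mesenchymal markers COL1A1, SPARC, VIM, RUNX2 and ALPL were present in all libraries, SP7 was listed at 0 in all of them, BGLAP did not exceed 5.68 and COL1A2 did not exceed 42.0. CD3E was listed at 0, PTPRC did not exceed 4.70, KRT5 did not exceed 4.59, EPCAM reached 47.6 and CDH1 reached 69.7. NUP93 read 1395 and 1432 in untreated NUP93-KO against 1753 and 2489 in untreated NONT (log2 difference −0.56 ± 0.20, limma adjusted p = 0.926). EXOSC5 read 215.9 and 147.7 in untreated EXOSC5-KO against 299.4 and 481.3 (−1.08 ± 0.29, limma adjusted p = 0.151). In both cases the groups did not overlap but the difference missed the threshold. The mRNA level was therefore not a full check of the knockout, since an edited gene can still give an mRNA.

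In untreated cells, all 10 genes were expressed, and levels between genes were compared per kilobase of the canonical transcript. The order of median values per kilobase over the 6 untreated libraries was CCNH (494), ERCC3 (392), GTF2H4 (238), CDK7 (208), MNAT1 (168), GTF2H1 (150), ERCC2 (142), GTF2H3 (131), GTF2H5 (11.6) and GTF2H2 (7.33). Neighbours in this order overlapped in range, except that GTF2H3 (111 to 191) lay above GTF2H5 (8.96 to 20.4). The place of GTF2H5 rested on a canonical transcript of which 7187 bases are 3′ UTR. CDK7 had the widest range among the 8 most abundant, 82.4 to 403 per kilobase.

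ERCC3, which encodes the triptolide-binding XPB, kept 41.7% of its mRNA in NONT on the spike-in scale. Responses more negative than that of ERCC3 were found in 66.1% of the tested genes in NONT, 77.3% in EXOSC5-KO and 71.4% in NUP93-KO. In NONT ERCC3 read 850.2 and 1178 untreated and 459.0 and 387.4 after triptolide. In NUP93-KO it read 927.0 and 1061 untreated and 714.4 and 772.8 after triptolide. In EXOSC5-KO it read 1116 and 1069 untreated and 748.2 and 801.1 after triptolide. The treated values lay below the untreated values in each genotype, and the 2 treated NONT libraries were the lowest of the 12. Of the untreated mean on the spike-in scale, 41.7% remained in NONT, and 70.9% and 74.8% remained in EXOSC5-KO and NUP93-KO. On the scale of log2(value + 1), ERCC3 fell by 1.24 ± 0.20 (SE, n = 2 against 2) in NONT with a limma adjusted p of 2.86e-05 and by 0.50 ± 0.20 in EXOSC5-KO with 0.0398. In NUP93-KO the change was −0.42 ± 0.20, which did not pass (limma adjusted p = 0.0902). With the sum of mitochondrially encoded mRNAs held equal, the changes were −0.89 in NONT, −0.59 in EXOSC5-KO and −0.72 in NUP93-KO. In NUP93-KO a fall was called under 4 of 23 alternatives. These included that sum (limma adjusted p = 0.00129) and only the groups compared (0.0254). With median of ratios ERCC3 rose there by 0.49. The call in EXOSC5-KO was lost when any library of EXOSC5-KO or NUP93-KO was left out (adjusted p between 0.0543 and 0.177), with the replicate number as a block (0.0522) and without the variance trend (0.0728), and in all it was lost or turned under 12 of 23 alternatives.

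CDK7, the kinase subunit, had the lowest remaining level of the 10 genes in each genotype. In NONT its values were 248.2 and 574.5 untreated and 8.253 and 4.874 after triptolide. In NUP93-KO they were 245.6 and 117.5 untreated and 48.12 and 48.42 after triptolide. In EXOSC5-KO they were 344.1 and 447.3 untreated and 14.96 and 30.90 after triptolide. Treated and untreated values did not overlap in any genotype, and the treated NONT values lay below those of both treated knockouts. The remaining share was 1.60% in NONT, 5.79% in EXOSC5-KO and 26.6% in NUP93-KO. The log2 fold change was −5.68 ± 0.47 in NONT (limma adjusted p = 1.47e-08), −4.12 ± 0.47 in EXOSC5-KO (1.18e-06) and −1.79 ± 0.47 in NUP93-KO (0.00367). A more negative response was found in 2.5% of the tested genes in NONT, 4.7% in EXOSC5-KO and 27.3% in NUP93-KO. The treated NONT values stood for about 13.7 and 9.95 reads, so their counting error alone is large. Without NUP93-KO untreated replicate 1 the response in that genotype was −1.27 and did not pass. With median of ratios the CDK7 response in NUP93-KO was −0.9, which also did not pass (limma adjusted p = 0.112).

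**Figure D1:**
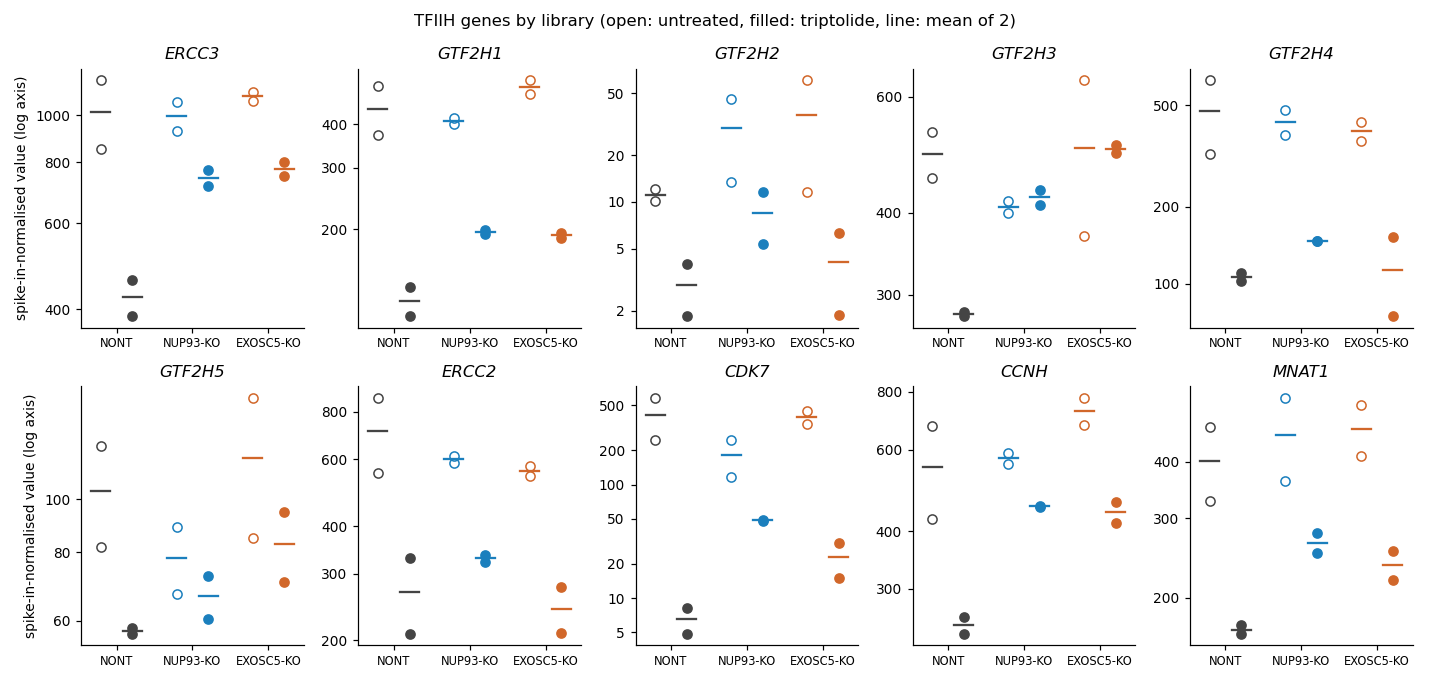
Spike-in-normalised value (log axis, a separate range for each gene) of the 10 TFIIH genes in the 12 libraries, with open points for untreated cells, filled points for 1 μM triptolide at 8 h and lines at the mean of 2 libraries. CDK7 shows the widest gap, from 248.2 and 574.5 to 8.253 and 4.874 in NONT, while the treated and untreated GTF2H3 values overlap in both knockouts.

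The partners of CDK7 in the kinase module fell less. Cyclin H (CCNH) read 425.6 and 673.9 untreated and 260.6 and 239.9 after triptolide in NONT, with 45.5% remaining. In NUP93-KO it read 557.8 and 591.3 untreated and 451.3 and 453.0 treated, with 78.7% remaining, and in EXOSC5-KO 775.4 and 677.2 untreated and 461.4 and 417.2 treated, with 60.5% remaining. It fell by 1.10 ± 0.23 in NONT and by 0.72 ± 0.23 in EXOSC5-KO, with limma adjusted p of 0.000284 and 0.0104. In NUP93-KO its change was −0.34 ± 0.23 (0.21), although the treated values again lay below the untreated ones. With the sum of mitochondrially encoded mRNAs held equal, the CCNH change in NUP93-KO was −0.65 and passed (limma adjusted p = 0.0031). With median of ratios it turned to 0.56 (limma adjusted p = 0.00114). The call in EXOSC5-KO was lost without untreated replicate 1 (adjusted p = 0.0876) or triptolide replicate 2 (0.0772). MNAT1, which stabilises the kinase and cyclin pair, retained 42.2% in NONT, 49.9% in EXOSC5-KO and 57.8% in NUP93-KO. It passed in all 3 genotypes, falling in that order by 1.21, 0.99 and 0.76 on the log2 scale, each ± 0.26. The call in NUP93-KO was lost without untreated replicate 2, where the value was −0.45 (adjusted p = 0.281), and without triptolide replicate 1 (0.0551) or 2 (0.105), and the call in EXOSC5-KO was lost without untreated replicate 1 (0.053).

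Among the structural core subunits, p62 (GTF2H1) and p52 (GTF2H4) fell in all 3 genotypes. GTF2H1 read 372.4 and 512.9 untreated and 136.5 and 112.9 treated in NONT, 400.5 and 416.6 against 193.1 and 198.4 in NUP93-KO, and 534.1 and 488.3 against 195.2 and 189.1 in EXOSC5-KO. In the same order it fell by 1.81, 1.06 and 1.41 on the log2 scale, each ± 0.23, with the highest limma adjusted p at 0.000958. GTF2H4 anchors XPB in the core, and its transcript words are shared as described. It read 321.2 and 627.4 against 110.1 and 102.4 in NONT. In NUP93-KO it read 383.3 and 481.0 against 146.8 and 146.3, and in EXOSC5-KO 430.5 and 363.2 against 152.0 and 74.73. No treated value of either gene reached an untreated one of the same genotype. The log2 fold changes of GTF2H4 were −2.07, −1.54 and −1.88, each ± 0.34, and 22.4%, 33.9% and 28.6% of the untreated mean remained.

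GTF2H3, which encodes p34, was the least reduced. It read 452.0 and 530.9 untreated and 278.6 and 282.3 treated in NONT, and fell there by 0.80 ± 0.24 (limma adjusted p = 0.00501). In NUP93-KO the values were 416.7 and 399.9 untreated and 410.4 and 433.6 treated, and in EXOSC5-KO 635.9 and 368.7 untreated and 507.4 and 492.4 treated. Treated and untreated values overlapped in both knockouts, where the fold change was 0.05 ± 0.24 on the log2 scale with a 95% interval from −0.46 to 0.55. The small subunit p8 (GTF2H5) read 81.72 and 125.2 untreated and 58.10 and 56.78 treated in NONT, and fell by 0.81 ± 0.37 (limma adjusted p = 0.0485). It passed in the same direction under only 7 of 23 alternatives, and without NONT untreated replicate 2 the value was −0.50 (adjusted p = 0.27), and with the replicate number as a block the adjusted p was 0.0572. In the knockouts its change was −0.22 ± 0.37 and −0.47 ± 0.37, with overlapping values.

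ERCC2, which encodes the bridging helicase XPD, fell in all 3 genotypes, by 1.40, 0.86 and 1.21 on the log2 scale, each ± 0.26, and 37.8%, 54.9% and 43.4% remained. The call in NUP93-KO was lost without untreated replicate 2 (adjusted p = 0.0551) or triptolide replicate 1 (0.0515). The treated NONT libraries of ERCC2, 208.4 and 329.1, differed more from each other than those of NUP93-KO, 322.9 and 335.7. The p44 gene GTF2H2 was at the edge of detection, with values between 1.862 and 60.33 that stood for about 2.28 to 41.8 reads. It fell by 2.59 ± 0.84 in EXOSC5-KO (limma adjusted p = 0.0128), but without untreated replicate 1 of that genotype the change was −1.45 and did not pass (adjusted p = 0.208), nor did it without triptolide replicate 2, at −1.92 (0.104). The values were −1.67 ± 0.84 in NONT (0.0688) and −1.54 ± 0.84 in NUP93-KO (0.132). Summed with its copy GTF2H2C, the pair fell by 1.39 in NONT, 1.36 in EXOSC5-KO and 2.56 in NUP93-KO, with limma adjusted p of 0.0199, 0.0316 and 0.000536. GTF2H2C alone read 1.588 and 22.14 in treated NUP93-KO, against 59.84 and 81.69 untreated.

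Triptolide lowered 9 of the 10 genes and raised 0 in NONT, where 90.0% of all tested genes were lower and 0.0507% higher at an adjusted p under 0.05. In NUP93-KO 5 were lower and 0 higher, against 55.1% and 0.138% of all tested genes, and in EXOSC5-KO 8 were lower and 0 higher, against 64.3% and 0.0796%. The counts of lower genes were near these shares. The median log2 fold change of the 10 was −1.32 in NONT, −1.10 in EXOSC5-KO and −0.81 in NUP93-KO, beside −1.62, −1.08 and −0.92 over all tested genes. In NONT 6 of the 10 lay above the median gene, GTF2H3 by 0.82 and GTF2H5 by 0.81, and CDK7 lay below it by the widest margin, at −4.06 relative to it. RNA was pooled over cells, so less mRNA in each cell and a loss in a part of the cells cannot be told apart.

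**Figure D2:**
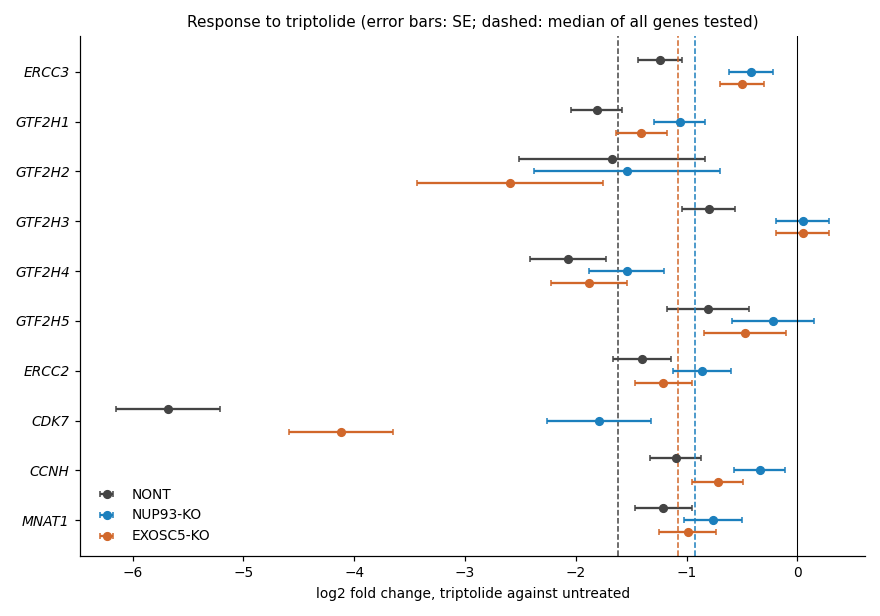
Log2 fold change after triptolide for the 10 TFIIH genes, in NONT (grey), NUP93-KO (blue) and EXOSC5-KO (orange), with bars of 1 SE and dashed lines at the median of all tested genes (−1.62, −0.92 and −1.08). The CDK7 points at −5.68, −4.12 and −1.79 are the lowest of each genotype in that order of NONT, EXOSC5-KO and NUP93-KO, and GTF2H3 lies at 0.05 in both knockouts.

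Without the drug, neither knockout moved the TFIIH genes past the threshold. In NUP93-KO 0 of 10 were lower and 0 higher than in NONT, where 0.00724% and 0.0145% of all tested genes were called by limma. In EXOSC5-KO 0 were lower and 0 higher, against 0.0362% and 0.485%. Before adjustment 1 gene was under 0.05 in limma for NUP93-KO, CDK7, at 245.6 and 117.5 against 248.2 and 574.5 (−1.15 ± 0.47, limma adjusted p = 1.0), and there were 0 in EXOSC5-KO. Over all 13811 genes, 338 were lower and 242 higher before adjustment in NUP93-KO, and 340 were lower and 833 higher in EXOSC5-KO. The 95% intervals of ERCC3 were −0.44 to 0.41 in NUP93-KO and −0.30 to 0.55 in EXOSC5-KO, so smaller changes could not be detected with 2 libraries a group.

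The difference in response was tested directly, as the response in a knockout minus that in NONT, and both knockouts were compared with the same NONT libraries. In NUP93-KO CDK7 passed, with a difference of 3.89 ± 0.66 (95% interval 2.49 to 5.29, limma adjusted p = 0.0271). It was the 1 of 10 called higher, with 0 lower, beside 0.76% higher and 0.0145% lower of all tested genes, and 99.8% of them had a smaller difference. The call was made under 16 of 23 alternatives, with adjusted p from 0.00117 to 0.184. It was lost on all 3 other library scales. The difference was 3.21 with the same sum of all genes (limma adjusted p = 0.184), 3.24 with median of ratios (0.166) and 3.29 with the mitochondrial mRNA sum (0.105). It was also lost with no filter on low values (0.0916) and without the variance trend (0.128). The call was lost as well without NONT untreated replicate 2, where the difference was 3.28, and without NUP93-KO untreated replicate 2, where it was 3.36. Untreated CDK7 also differed within these groups, 248.2 and 574.5 in NONT and 245.6 and 117.5 in NUP93-KO, and the part of that spread in the result was not tested.

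None of the other 9 members passed in either knockout, by limma at an adjusted p under 0.05. The ERCC3 difference was 0.83 ± 0.28 in NUP93-KO (limma adjusted p = 0.0722) and 0.75 ± 0.28 in EXOSC5-KO (0.181), and the median gene differed by 0.74 and 0.57. Without NONT untreated replicate 1 the ERCC3 difference was 1.06 and 0.98, and the median gene then differed by 1.0 and 0.84. GTF2H2 lay at 0.13 ± 1.18 in NUP93-KO and at −0.92 ± 1.18 in EXOSC5-KO. At an unadjusted p under 0.05, 5 of the 10 genes, CDK7 included, responded less in NUP93-KO than in NONT, as did 5709 of all 13811 tested genes, and for EXOSC5-KO the counts were 3 of 10 and 3187 of 13811. In EXOSC5-KO 0 of 10 were called higher and 0 lower, beside 0.319% and 0.0145% of all tested genes. CDK7 there had a difference of 1.56 ± 0.66 (95% interval 0.16 to 2.96, limma adjusted p = 0.196). Without NONT untreated replicate 1 the CDK7 difference was 2.16, and the median gene then differed by 0.84.

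**Figure D3:**
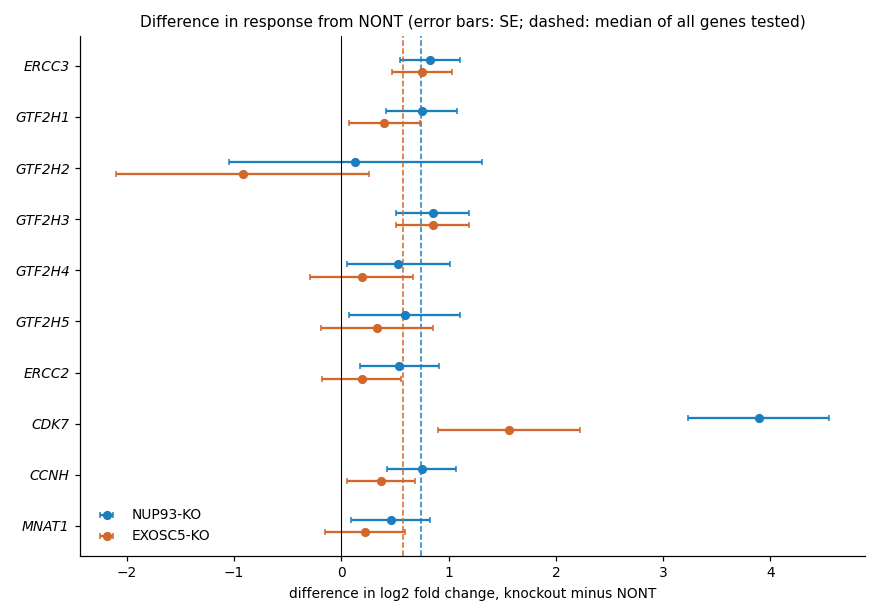
Response in NUP93-KO (blue) and EXOSC5-KO (orange) minus the response in NONT, on the log2 scale, with bars of 1 SE and dashed lines at the median of all tested genes (0.74 and 0.57). CDK7 in NUP93-KO stands at 3.89, CDK7 in EXOSC5-KO at 1.56, and the other 9 members lie between −0.92 and 0.85.

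A ratio of both genes in the same library does not use the spike-in scale, and the ratio of ERCC3 to CDK7 rose after triptolide. It was 3.43 and 2.05 in untreated NONT and 55.6 and 79.5 after triptolide. In NUP93-KO it was 3.77 and 9.03 against 14.8 and 16.0, and in EXOSC5-KO 3.24 and 2.39 against 50.02 and 25.9. Treated and untreated ratios did not overlap within any genotype. The mean log2 change over genotypes was 3.25 (exact two-sided permutation p = 0.00926, the smallest that 216 arrangements within genotypes can give), made of 4.65 in NONT, 3.69 in EXOSC5-KO and 1.40 in NUP93-KO. With ERCC2 in place of CDK7 the change was 0.44 (exact permutation p = 0.037), and with CCNH it was 0.00 (exact permutation p = 0.981). These are 3 tests, and CDK7 was chosen as the partner with earlier results of these data known.

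As a part of the summed gene values of its library (in ppm), ERCC3 was no lower after triptolide. It made up 71.6 to 80.1 ppm in untreated libraries and 77.3 to 99.8 ppm in treated ones, and within each genotype the treated values lay above the untreated ones. CDK7 made up 8.87 to 34.9 ppm untreated and 0.995 to 5.85 ppm treated, without overlap. Cyclin H made up 37.6 to 53.8 ppm untreated and 43.9 to 57.6 ppm treated. When every library was given the same sum, the NONT response of ERCC3 was 0.09 and that of CDK7 −4.44, and the median tested gene moved from −1.62 to −0.32. With median-of-ratios factors ERCC3 rose by 0.41 (limma adjusted p = 0.000882), and with the sum of the 13 mitochondrially encoded mRNAs held equal it fell by 0.89. ERCC3 was thus lower in NONT on the spike-in and mitochondrial scales and not on the scales set by all genes, whereas CDK7 in NONT fell on all 4 scales.

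**Figure D4:**
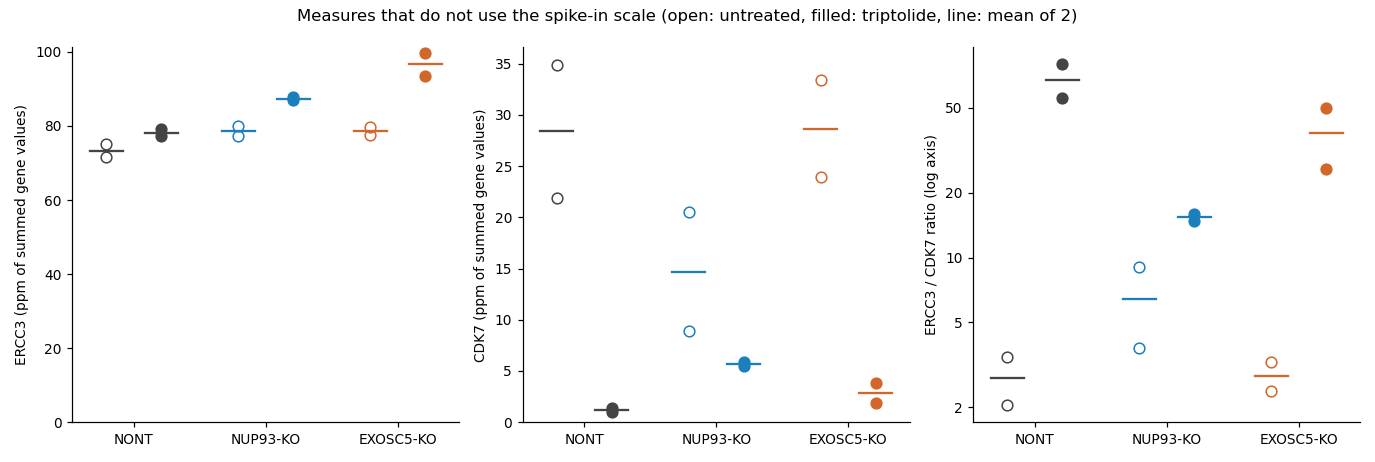
ERCC3 and CDK7 in ppm of the summed gene values of the library and the ERCC3 to CDK7 ratio (log axis) in the 12 libraries, with open points for untreated cells, filled points for triptolide and lines at the mean of 2. ERCC3 stays between 71.6 and 99.8 ppm, CDK7 drops to 0.995 to 5.85 ppm, and the ratio rises within each genotype.

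**Figure D5:**
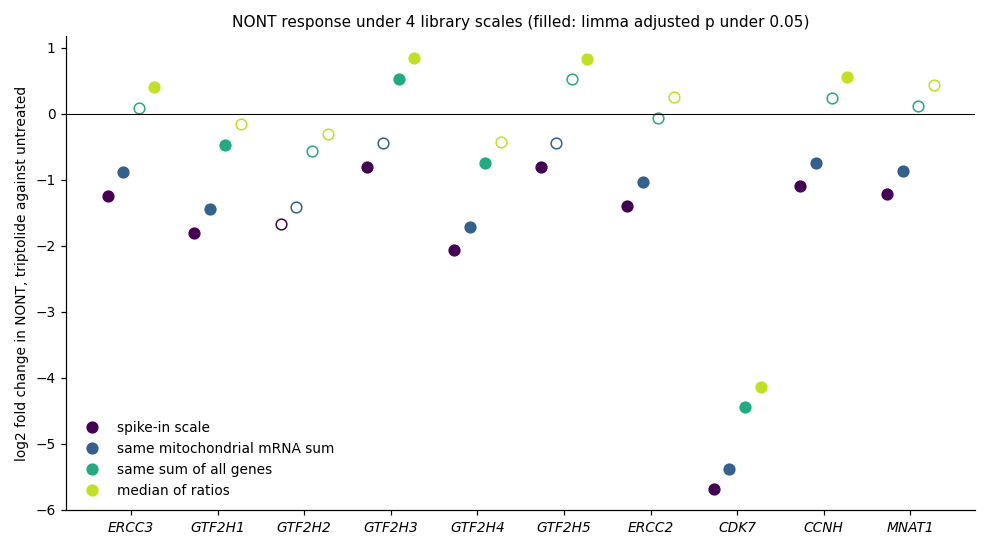
Log2 fold change in NONT of the 10 genes under 4 library scales (spike-in, equal mitochondrial mRNA sum, equal sum of all genes, median of ratios), filled where the limma adjusted p was under 0.05. CDK7 lies between −5.68 and −4.14 on every scale, while ERCC3 runs from −1.24 to 0.41.

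Other genes of the pathways that TFIIH serves were counted beside all tested genes, of which 90.0% were lower in NONT, 64.3% in EXOSC5-KO and 55.1% in NUP93-KO. All 21 general transcription factor genes fell in NONT, 19 in EXOSC5-KO and 15 in NUP93-KO, with 0 higher in each and medians of −1.80, −1.37 and −1.46, beside −1.62, −1.08 and −0.92 over all tested genes. The deepest were the TFIID subunit TAF5, at 194.7 and 448.0 untreated and listed at 0 and 13.21 treated in NONT, and GTF2E1, a TFIIE subunit that helps recruit TFIIH, at 230.9 and 306.9 against 5.853 and 5.559. The smallest responses were those of the TFIID subunits TAF6 (−0.87 ± 0.19) and TAF10 (−0.58 ± 0.20). GTF2E1 fell by 5.32 ± 0.55, so CDK7 was not alone among initiation genes in losing nearly all of its signal.

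All 17 nucleotide excision repair genes fell in NONT, 13 in EXOSC5-KO and 9 in NUP93-KO, with 0 higher and medians of −1.28, −0.86 and −0.72. These counts were read against the same shares of all tested genes, 90.0%, 64.3% and 55.1%. The deepest were ERCC6, the transcription-coupled repair translocase CSB, with −3.76 ± 0.38, and ELOF1, an elongation factor used in the same pathway, with −3.10 ± 0.24. RPA3, part of the single-strand binding protein RPA, had −0.75 ± 0.20, among the smallest responses of the list. In the test of response between genotypes, 1 of the 17 passed for NUP93-KO, UVSSA, which links TFIIH to stalled RNA Pol II, at 3.83 ± 0.69 (limma adjusted p = 0.0271), beside 0.76% of all tested genes. In untreated cells UVSSA differed by −1.61 ± 0.49 between NUP93-KO and NONT (limma adjusted p = 0.641), and the part of that in the result was not tested. UVSSA is named here after its value was seen.

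The genes whose log2 values followed ERCC3 most closely over the 12 libraries were NSMF (Pearson r = 0.9925), DMAC1 (0.9925), HADHB (0.9918), EMC7 (0.9915) and ZNF853 (0.9911). Among the members, r with ERCC3 was highest for CCNH (0.9681) and lowest for GTF2H2 (0.6907). These correlations share the spike-in scale and the drug response, and 4371 genes had r over 0.9.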

How the data were processed

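Polyadenylated, strand-specific RNA-seq of 12 U2OS libraries was used. The authors pseudoaligned reads with kallisto 0.46.1 to the Ensembl GRCh38 transcriptome with ERCC standards, summed them to protein-coding genes with tximport and normalised by size factors that DESeq2 took from the 92 ERCC transcripts. The deposited values are therefore a spike-in-normalised signal rather than raw counts. Miscounted cells or spike-in volume would move all genes of a library together. Of the low values, 11.9% to 23.8% were whole multiples of 1 read's worth (tolerance 0.01), so no count model was used, and read numbers are approximate. Gene IDs were matched to GENCODE release 44 for 19584 genes, and 2795 were not matched, so other IDs of a member could not be summed.

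Groups and replicate numbers came from the labels, which do not say whether replicates were separate cultures, so p-values measure only the spread between these libraries. Genes with an untreated mean of at least 10 were fitted with limma 3.58.1 (R 4.3.3, trended variance) on log2(value + 1), as 6 group means over 12 libraries, with two-sided tests and Benjamini-Hochberg adjustment at 0.05 over all 13811 genes. Differences are treated minus untreated, or knockout minus NONT. The ratio was tested with SciPy 1.17.1 and Python 3.11.15. The code was tested on simulated data. Promoter sequences are from RefSeq (GRCh38.p14).

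Alternatives were 3 other library scales, 2 pseudocounts, 2 filters, no variance trend, a replicate block, only the groups compared, summed gene copies and each library left out. The 10 members and the lists were chosen with earlier results of these data known. Named genes were the members, GTF2H2C, NUP93, EXOSC5, from each of 2 lists (21 general transcription factor and 17 nucleotide excision repair genes) the 2 deepest and 2 smallest NONT responses, and the 5 genes most correlated with ERCC3. A gene that this rule names and a marker gene are not reported here.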

Additional observations from a re-analysis of the deposited data

Results flagged for a closer look

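The triptolide response of CDK7 was flagged because it differed between groups in a direct test, by 3.89 ± 0.66 on the log2 scale between NUP93-KO and NONT (limma adjusted p = 0.0271, over 23 alternatives from 0.00117 to 0.184). CDK7 read 8.253 and 4.874 in treated NONT and 48.12 and 48.42 in treated NUP93-KO, and these groups did not overlap. Without NONT untreated replicate 2 or NUP93-KO untreated replicate 2 the difference was 3.28 or 3.36 and did not pass. It also did not pass on the 3 other library scales, with no filter on low values or without the variance trend.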

How the results depend on the processing

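The spike-in scale set how many TFIIH genes were called. With the same sum of all genes in every library, NONT had 3 members lower and 1 higher, EXOSC5-KO 3 and 2, and NUP93-KO 3 and 1, in place of 9, 8 and 5 lower and 0 higher. With median-of-ratios factors NONT had 1 lower and 4 higher, EXOSC5-KO 3 and 3, and NUP93-KO 0 and 3. The direction turned in NONT for ERCC3 (0.09 with the same sum, 0.41 with median of ratios), GTF2H3 (0.53, 0.85), GTF2H5 (0.52, 0.83), CCNH (0.24, 0.55) and MNAT1 (0.12, 0.43), and for ERCC2 with median of ratios (0.25). It turned in NUP93-KO for ERCC3 (0.15, 0.49), CCNH (0.22, 0.56) and GTF2H5 (0.34, 0.67), and with median of ratios for ERCC2 (0.04) and MNAT1 (0.14). In EXOSC5-KO it turned for ERCC3 (0.30, 0.58), CCNH (0.07, 0.36) and GTF2H5 (0.31, 0.60), and for MNAT1 with median of ratios (0.09). On the mitochondrial scale GTF2H3 turned to −0.25 in NUP93-KO and −0.05 in EXOSC5-KO, neither called. These scales hold the sum or the median gene equal by construction. The split of all called genes in NONT moved from 12427 lower and 7 higher to 5270 and 2105 with the same sum and to 4185 and 3752 with median of ratios. For EXOSC5-KO it moved from 8884 and 11 to 5078 and 2027 and to 3964 and 3612, in the same order. For NUP93-KO it moved from 7603 and 19 to 5430 and 1922 and to 4101 and 3681.

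The count of members whose response differed between NUP93-KO and NONT was 0 in place of 1 with the same sum, median of ratios, the mitochondrial scale, no filter on low values and no variance trend. Over all tested genes, 2, 2, 1, 4 and 0 were called higher in the same order, in place of 105. The cause was not tested. Leaving out 1 library also changed how many members were called. Fewest were lower in NUP93-KO without its untreated replicate 2 or triptolide replicate 1, and in EXOSC5-KO without its untreated replicate 1. Members with a higher response difference were most numerous, for both knockouts, when NONT untreated replicate 1 was left out. All tested genes shifted the same way in that fit. Their median response difference went from 0.74 to 1.0 for NUP93-KO and from 0.57 to 0.84 for EXOSC5-KO. The rise was therefore not particular to TFIIH genes. A lone remaining library was assumed to vary like the others. The ratio change with CCNH as partner was 0.00, and leaving out 1 library gave 3.04 to 3.46 for CDK7.

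Same-numbered libraries did not deviate together (r from −0.05 to 0.04 over 15 pairs of groups), so the numbers were not read as pairs. With the replicate block, 8, 5 and 7 members were lower in NONT, NUP93-KO and EXOSC5-KO, beside 12403, 7429 and 8670 of all 13811 tested genes. Of the response differences in NUP93-KO 1 was called higher, beside 41 over all tested genes. The ratio change was 3.25 with signs changed over same-numbered pairs (exact permutation p = 0.0312). That is the smallest p that these pairs can give. The block ended the calls of GTF2H5 in NONT and ERCC3 in EXOSC5-KO. Summing gene copies gave 10, 6 and 8 lower, beside 12428, 7603 and 8884 of all 13810 tested genes. Depth limited GTF2H2 and the treated NONT values of CDK7 most.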
